A study of Mus musculus with 18 samples.

Results

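The inflammatory CC chemokines are small secreted proteins that draw leukocytes into inflamed tissue, and transcripts of 8 of them (Ccl2, Ccl3, Ccl4, Ccl5, Ccl6, Ccl7, Ccl9 and Ccl12) were followed in mouse eosinophils that met apoptotic cells together with a Type 1 or a Type 2 stimulus. The genes were picked by name, as the rows of the table whose Ensembl identifier, without its version, maps to one of these symbols, and all 8 were found among 54446 genes. Eosinophils were enriched from the peritoneal cavity, by removal of T and B cells, of Il5Tg mice (NJ.1638, labelled C57BL/6), a line in which T cells overproduce IL-5, the cytokine that drives eosinophil growth. All libraries, the controls too, are from eosinophils kept for 18 h in contact with apoptotic cells (ACs) at 5 ACs for each eosinophil. As ACs served wild-type thymocytes that had spent 6 h in dexamethasone, and the eosinophils were recovered from the mixture on beads against Siglec-F. In the Type 1 experiment the eosinophils and ACs received nothing more, E. coli, IFN-γ, or IFN-γ followed by E. coli (both stimuli), and in the IL-4 experiment they received nothing more or IL-4, with 3 libraries in each of these 6 groups. The study's methods call the replicates biological, and a legend on eosinophils with ACs gives a different mouse for each, but the labels tie no library to a mouse, and p-values measure the spread between these libraries. Eosinophils without ACs are not analysed here, and each stimulus was therefore read against the ACs libraries of its own experiment.

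CC chemokines act through G protein-coupled receptors on leukocytes and fall into groups by the receptors that they bind. Ccl2, Ccl7 and Ccl12 are the monocyte chemoattractants, which call in monocytes through CCR2. Ccl3 and Ccl4, the macrophage inflammatory proteins, and Ccl5, also called RANTES, draw T cells and macrophages, and Ccl3 and Ccl5 bind CCR1. Ccl6 and Ccl9 are rodent chemokines that bind CCR1 and are made steadily by myeloid cells. In macrophages, bacterial products induce Ccl3 and Ccl4 through NF-κB, and IL-4 acts through STAT6.

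All 8 genes lie on chromosome 11 of GRCm38, in a pair of clusters 1.42 Mb apart. The first cluster spans 67.8 kb and holds Ccl2 (ENSMUSG00000035385.5, positions 82035571 to 82037453), Ccl7 (ENSMUSG00000035373.2, 82045712 to 82047525) and Ccl12 (ENSMUSG00000035352.3, 82101845 to 82103400), all 3 on the plus strand. The second spans 138.9 kb and holds, on the minus strand, Ccl5 (ENSMUSG00000035042.2, 83525778 to 83530518), Ccl9 (ENSMUSG00000019122.8, 83572919 to 83578636), Ccl6 (ENSMUSG00000018927.3, 83587882 to 83593087) and Ccl3 (ENSMUSG00000000982.5, 83647844 to 83649355), followed by Ccl4 on the plus strand (ENSMUSG00000018930.3, 83662584 to 83664683). Although the genes arose by duplication, no stretch of 30 bases of any member's transcripts occurs in a transcript of another member, and the share found in any other gene was at most 3.95%, for Ccl9. An antisense gene overlaps Ccl6 (E230016K23Rik, with a normalized count of at most 160 in any library) and another overlaps Ccl2 (Gm17268, listed at 0 in all libraries). The strand setting of the counting is not given in the sources used here, so reads of Ccl6 and E230016K23Rik may not be told apart.

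RefSeq promoters of GRCm38.p6 were matched for only 4 members (Ccl3, Ccl6, Ccl9 and Ccl12). The 250 bases before the start of each are shown, 5′ to 3′ on the gene's strand. They cover chr11:82101595-82101844 for Ccl12 (plus strand), chr11:83578637-83578886 for Ccl9, chr11:83593088-83593337 for Ccl6 and chr11:83649379-83649628 for Ccl3 (minus strand). Capitals mark matches to the motifs searched on both strands.
Ccl12: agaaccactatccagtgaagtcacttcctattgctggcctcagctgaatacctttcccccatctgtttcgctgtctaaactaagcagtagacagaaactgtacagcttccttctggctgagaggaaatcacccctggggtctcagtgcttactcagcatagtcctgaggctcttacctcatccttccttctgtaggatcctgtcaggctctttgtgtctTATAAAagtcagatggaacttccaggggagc
Ccl9: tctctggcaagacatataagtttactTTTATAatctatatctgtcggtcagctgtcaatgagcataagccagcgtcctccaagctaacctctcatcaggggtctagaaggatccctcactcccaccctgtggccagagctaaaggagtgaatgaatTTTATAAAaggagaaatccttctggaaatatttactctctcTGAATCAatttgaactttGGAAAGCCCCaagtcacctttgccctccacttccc
Ccl6: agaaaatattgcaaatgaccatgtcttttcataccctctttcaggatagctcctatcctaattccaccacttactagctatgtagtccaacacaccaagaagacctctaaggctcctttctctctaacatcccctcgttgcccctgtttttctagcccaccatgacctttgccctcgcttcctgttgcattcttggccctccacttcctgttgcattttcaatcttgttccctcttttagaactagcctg
Ccl3: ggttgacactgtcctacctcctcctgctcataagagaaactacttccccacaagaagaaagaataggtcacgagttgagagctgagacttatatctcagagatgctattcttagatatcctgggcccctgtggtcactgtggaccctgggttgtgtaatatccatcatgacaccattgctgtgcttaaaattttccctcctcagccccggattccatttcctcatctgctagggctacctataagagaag
The motifs were the κB consensus, GAS (TTCNNNGAA), the STAT6 motif, the ISRE core, AP-1 (TGANTCA) and the TATA box (TATAAA), where GAS and the ISRE are elements of interferon-induced genes. Ccl12 held a TATA box from 31 to 26 bases before its start. Ccl9 held a κB match on the opposite strand from 35 to 26 bases before its start, an AP-1 match from 53 to 47, and 3 TATA matches, at 224 to 219, 94 to 89 and 92 to 87, of which the last pair overlap on opposite strands. No match to these letters was found in the windows of Ccl6 and Ccl3, which run 50 bases past the start. Over all 32851 RefSeq promoters of the same length, 8.46% held a κB match, 8.30% GAS, 6.95% the STAT6 motif, 3.44% the ISRE core, 7.81% AP-1 and 13.6% the TATA box.

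The libraries held 779421 to 7782072 reads on genes (median 4461121), and replicate 3 of each group of the IL-4 experiment was shallow, at 779421 reads for ACs and 849705 for IL-4. In these shallow libraries 3 reads, the number that cannot be told from 0, stand for normalized counts of 16.1 and 15.4. Values are reads per gene divided by a library size factor (normalized counts), counted from transcript ends by CEL-Seq2, and levels are compared only within a gene. The 8 members together took between 0.470% and 1.47% of the reads on genes, lowest with both Type 1 stimuli and highest with IL-4. With ACs alone this share was 0.612% to 0.646% in the Type 1 experiment and 1.04% to 1.08% in the IL-4 experiment. In the ACs libraries Ccl6 and Ccl9 held the most of these reads. With both Type 1 stimuli the mean of Ccl6 was lower than with ACs, and those of Ccl3, Ccl4 and Ccl5 were higher. Of 10 eosinophil markers, 9 had a mean of at least 10, among them Siglecf (1514 to 3367 over the 18 libraries) and Ccr3 (2623 to 4934), whereas Epx, eosinophil peroxidase, ranged from 0 to 25.7.

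Markers of macrophages were abundant in these libraries and moved with the groups. The summed normalized count of 12 macrophage markers (among them C1qc, Apoe and Csf1r) was 18627 to 23479 in the ACs libraries of the Type 1 experiment, 10926 to 13353 in those given E. coli, 26616 to 37621 in those given IFN-γ and 11739 to 12444 in those given both. In the IL-4 experiment it was 31453 to 47057 with ACs and 24550 to 40785 with IL-4. Cx3cr1 was the 1 marker of the 12 with a mean under 10. The 10 eosinophil markers summed to 24324 to 25711, 26629 to 28809, 15240 to 17640 and 22165 to 26728 in the 4 Type 1 groups in the same order, and to 37476 to 41185 and 40893 to 46075 in the IL-4 experiment. Fewer cells of a type and less RNA per cell cannot be told apart in such libraries, and the part of the macrophage transcripts in the results below was not tested. Markers of thymocytes, the cell type that served as ACs, summed to 53.6 to 193 over 12 genes, with 8 of the 12 under a mean of 10. Whether these transcripts came from the ACs was not tested. Neutrophil markers (10 genes, 5 under a mean of 10) summed to 1643 to 1951 with ACs, 2375 to 2632 with E. coli, 2082 to 2592 with IFN-γ and 1170 to 1451 with both, and to 3619 to 4826 in the IL-4 experiment. Retnlg made up most of the Type 1 sums, at 1506 to 1794 with ACs and 746 to 1043 with both. By the threshold given below, 4 of 6 neutrophil markers tested rose with both stimuli and 1 fell (14.7% and 17.2% of all genes). The median log2 change of the 6 was 1.76. B cell markers (6 genes, 4 under 10) summed to 902 to 1043, 309 to 317, 97.6 to 183 and 154 to 172 in the 4 Type 1 groups in the same order, and to 349 to 571 in the IL-4 experiment. Ighm made up most of the B cell sums, at 861 to 992 with ACs and 227 to 257 with E. coli in the Type 1 experiment. Cd79a, the other B cell marker tested there, was at 26.0 to 26.9 and 34.3 to 46.6 in these groups. Over all groups the sums were 215 to 563 for dendritic cell markers and 5.6 to 67.6 for mast cell markers.

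Between 4 and 6 of the 8 chemokines passed the threshold with each stimulus, and they were not the same genes. With E. coli, Ccl3, Ccl4 and Ccl5 were higher than with ACs alone and Ccl12 was lower, which makes 4 of 8 past the threshold (limma, Benjamini-Hochberg adjusted p under 0.05 over all genes and a change of at least 1.5-fold), where 10.3% of 10166 genes were past it, 5.05% higher and 5.25% lower. The libraries of 5 members did not overlap in that comparison, against 38.3% of genes. With IFN-γ, Ccl2, Ccl4, Ccl5 and Ccl12 were higher and Ccl6 and Ccl9 were lower, 6 of 8 against 21.4% of genes (11.4% higher, 9.96% lower), and 5 did not overlap, against 42.9%. Both stimuli gave higher Ccl3, Ccl4 and Ccl5 and lower Ccl6 and Ccl12, 5 of 8 against 31.9% of genes (14.7% higher, 17.2% lower), and 6 did not overlap, against 48.8%. IL-4 gave higher Ccl2, Ccl4, Ccl7 and Ccl12, 4 of 8 against 1.09% of 10669 genes (0.74% higher, 0.347% lower), and 7 did not overlap, against 17.3%. The median log2 change of the 8 members was 0.42, 0.63, 0.19 and 0.72 in these comparisons, beside medians over all genes between -0.05 and 0. The 3 Type 1 comparisons share their ACs libraries. Values are given for replicates 1, 2 and 3 in that order.

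**Figure D1:**
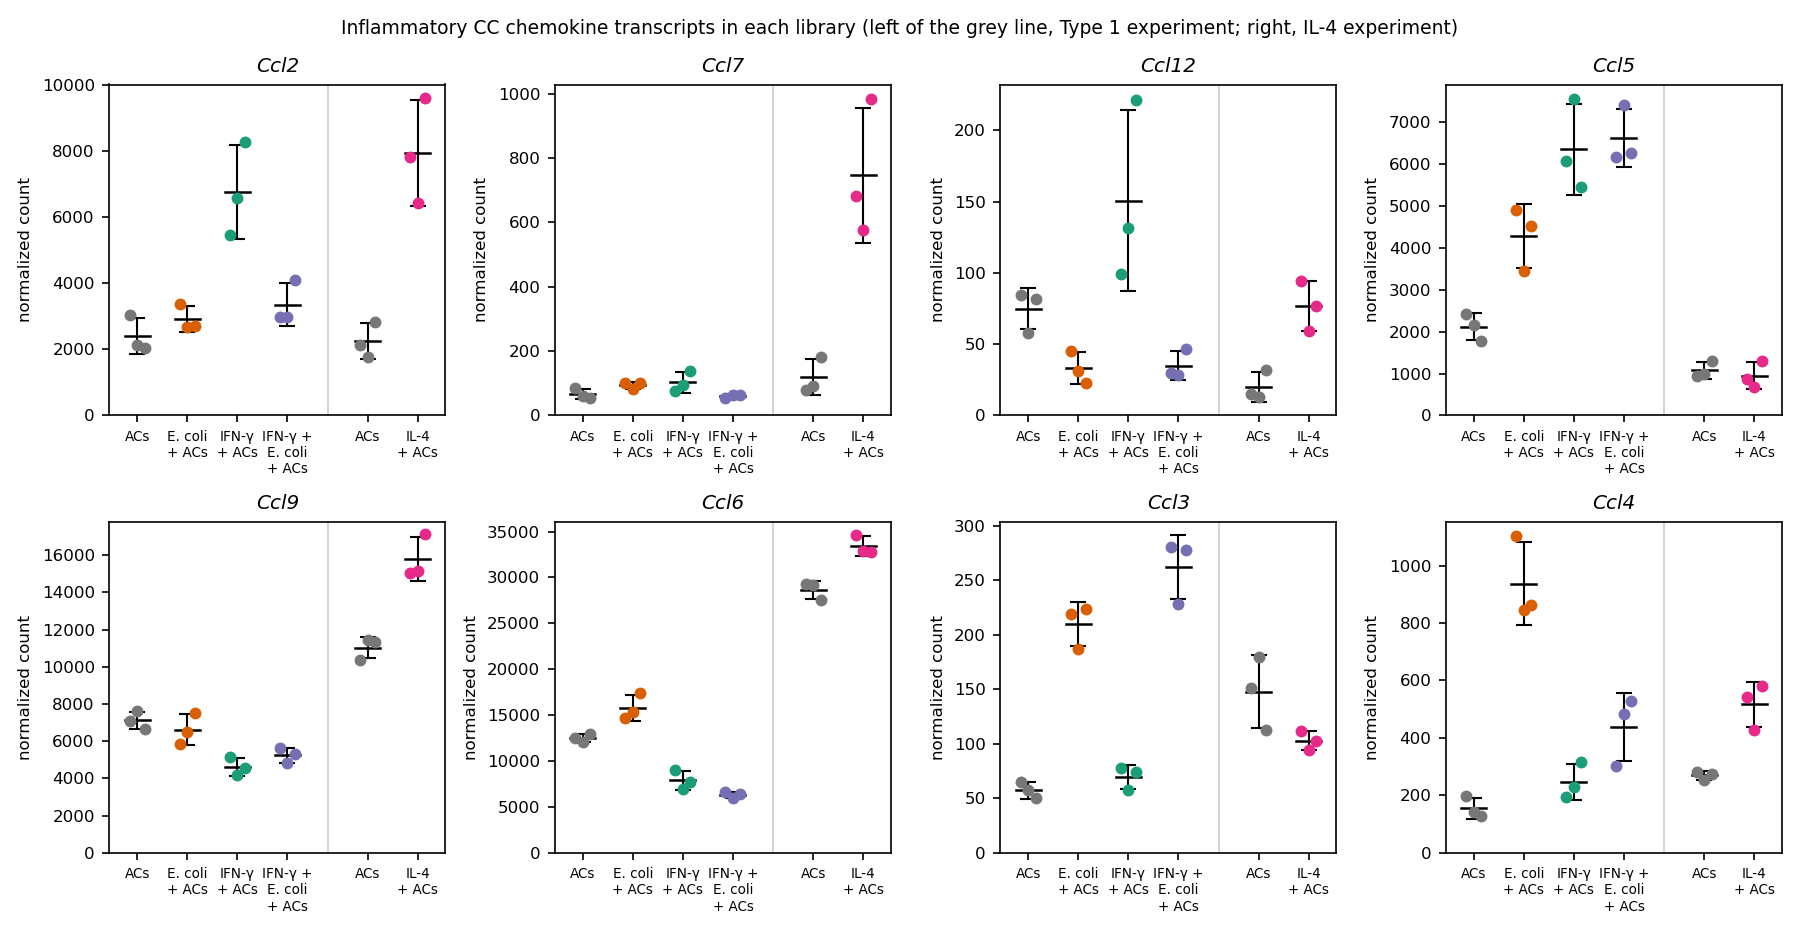
Normalized count (linear axis from 0) of each chemokine in each library, with genes in their order along the chromosome. Points are libraries, and bars give the mean and SD of 3. Ccl7 in IL-4 lies between 578 and 982, above every other library, and Ccl4 in E. coli lies between 845 and 1103.

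Ccl2, the main monocyte chemoattractant, was raised by IFN-γ and by IL-4. Its normalized counts were 3028, 2128 and 2048 in the ACs libraries, 3380, 2673 and 2693 in those given E. coli, 5445, 6582 and 8264 in those given IFN-γ and 2976, 2970 and 4094 in those given both. The 3 IFN-γ libraries lay above all others of the experiment, and the other 3 groups overlapped. The mean rose 2.82-fold with IFN-γ, from 2401 ± 544 to 6763 ± 1418 (SD, n = 3), a log2 change of 1.5 (SE 0.17, limma adjusted p = 1.8e-06). In the order of levels, ACs, E. coli and both stimuli did not pass the threshold against each other, at log2 changes of 0.29 (adjusted p = 0.30) and 0.48 (adjusted p = 0.03, under 1.5-fold) over ACs. Addition of E. coli to IFN-γ left Ccl2 lower than with IFN-γ, at a log2 difference of -1.01 (SE 0.17, limma adjusted p = 0.00034). Without ACs replicate 1, the highest of its group, the change with both stimuli passed the threshold.

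In the IL-4 experiment, Ccl2 was at 2129, 1782 and 2831 with ACs and at 7812, 6415 and 9612 with IL-4. Every IL-4 library was above every ACs library, and the mean was 3.54-fold higher (log2 change 1.83, SE 0.19, limma adjusted p = 0.0014). The responses to IL-4 and IFN-γ differed by 0.33 (SE 0.28, adjusted p = 0.48), a difference that did not pass the threshold, while the IL-4 response exceeded that to E. coli by 1.53 (SE 0.28, adjusted p = 0.0015).

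Ccl7, a monocyte chemoattractant that also acts on eosinophils through CCR3, was the member with the largest response to IL-4. It was at 79.7, 92.6 and 182 with ACs and at 681, 578 and 982 with IL-4, with no overlap. The mean was 6.32-fold higher, at 747 ± 210 against 118 ± 55.9 (SD, n = 3), a log2 change of 2.71 (SE 0.31, limma adjusted p = 0.0022). The rise was 2.21 larger than the change with E. coli, 2.11 larger than that with IFN-γ and 2.81 larger than that with both (SE 0.40 each, limma adjusted p = 0.0014, 0.00072 and 2.2e-05).

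In the Type 1 experiment Ccl7 stayed between 54.2 and 137 in all 12 libraries. It was at 86.2, 59.1 and 55.5 in the ACs libraries, 101, 80.9 and 99.4 in those given E. coli, 76.5, 94.0 and 137 in those given IFN-γ and 54.2, 64.7 and 64.9 in those given both. The groups overlapped with ACs, and the log2 changes of 0.50, 0.59 and -0.10 did not pass (limma adjusted p = 0.19, 0.071 and 0.76). The IFN-γ change passed when either ACs replicate 1 or IFN-γ replicate 1 was left out, and the change with both stimuli became 0.09 without ACs replicate 1. With IFN-γ + E. coli the level was below that with IFN-γ, at -0.70 (SE 0.24, limma adjusted p = 0.046), a call lost in 5 of 6 fits with 1 library less (adjusted p 0.054 to 0.19, every library but IFN-γ replicate 1), with edgeR, with DESeq2, without a filter on low values, with the replicate number as a block and with all 18 libraries in one fit.

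Ccl12, the third monocyte chemoattractant of this cluster, fell with E. coli and rose with IFN-γ and IL-4. Its normalized counts were 84.6, 58.2 and 81.6 in the ACs libraries, 45.2, 31.1 and 22.9 in those given E. coli, 98.9, 132 and 222 in those given IFN-γ and 29.9, 28.1 and 46.9 in those given both. The groups with E. coli lay below ACs and the IFN-γ group above it, without overlap. The log2 change was -1.19 with E. coli (SE 0.31, limma adjusted p = 0.015), 0.94 with IFN-γ (SE 0.31, adjusted p = 0.031) and -1.09 with both (SE 0.31, adjusted p = 0.0094). The level with both stimuli was below that with IFN-γ, at a log2 difference of -2.03 (SE 0.31, limma adjusted p = 0.00014) and differed from that with E. coli by 0.10 (adjusted p = 0.86).

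The E. coli call on Ccl12 was lost without ACs replicate 1, ACs replicate 3 or E. coli replicate 3 (limma adjusted p 0.066 to 0.089). The IFN-γ call was lost without ACs replicate 2 or 3 or IFN-γ replicate 2 or 3 (adjusted p 0.055 to 0.17), and also without a filter on low values, with upper-quartile scaling and with all 18 libraries in one fit. Ccl12 and the summed macrophage markers had their lowest Type 1 values in the same pair of groups, those with E. coli, and their highest with IFN-γ. Over 18 deviations from the own experiment's ACs mean, the Pearson r of Ccl12 with the macrophage sum was 0.535. Within groups, where each group's mean was taken out, it was 0.18, and -0.06 without the 2 libraries farthest from the median of the sum. The same within-group r was 0.48 for Ccl2 and 0.61 for Ccl7, or 0.23 and 0.33 without those 2 libraries.

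**Figure D2:**
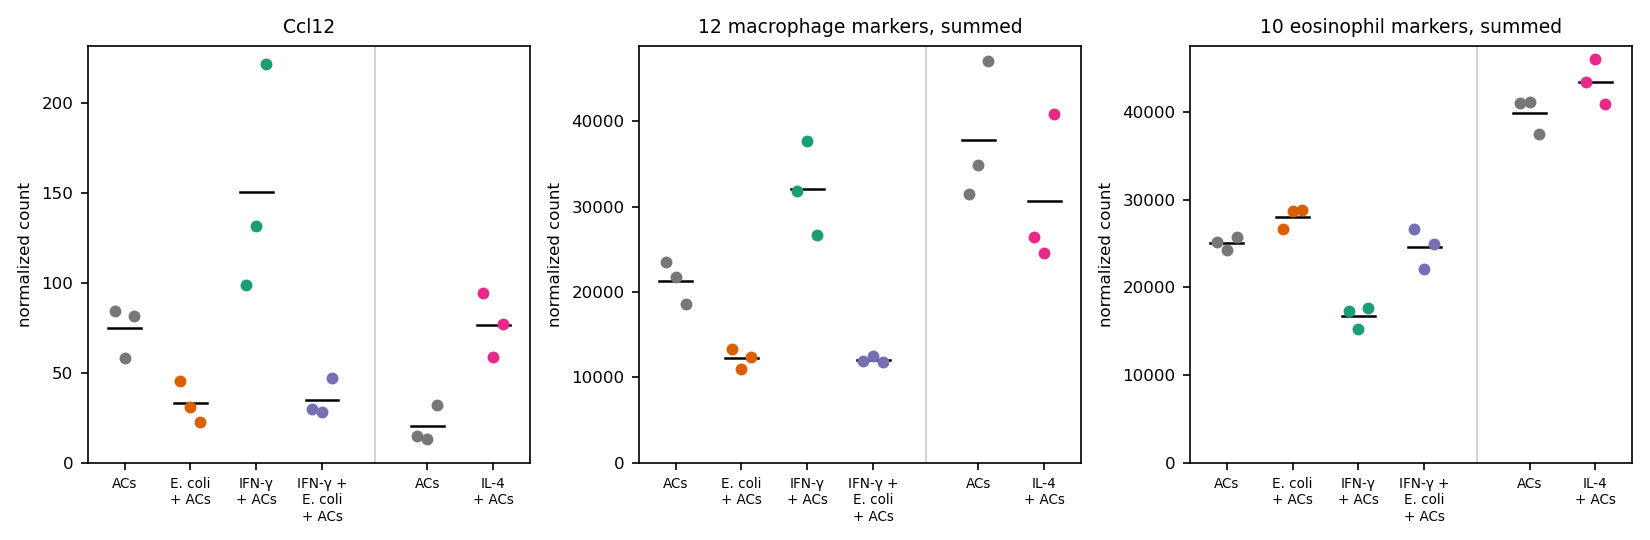
Normalized counts (linear axes from 0) of Ccl12, of 12 macrophage markers summed and of 10 eosinophil markers summed in each library. Points are libraries and lines are means of 3. Ccl12 and the macrophage sum were both low with E. coli and high with IFN-γ, whereas with IL-4 Ccl12 lay above its ACs libraries (59.0 to 94.4 against 13.2 to 32.2) and the macrophage sums overlapped.

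With IL-4, Ccl12 was at 94.4, 59.0 and 77.1, against 15, 13.2 and 32.2 with ACs. The groups did not overlap and the mean was 3.81-fold higher (log2 change 1.96, SE 0.39, limma adjusted p = 0.049). Since the shallow ACs library holds only 6 reads of Ccl12, its value of 32.2 is coarse. This call was lost on leaving out any IL-4 library or ACs replicate 1 or 2 (limma adjusted p 0.10 to 0.30) and with upper-quartile scaling. The IL-4 response of Ccl12 exceeded those to E. coli and to both stimuli by 3.15 and 3.05 (SE 0.50 each, limma adjusted p = 0.00045 and 0.00014).

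Ccl3, a ligand of CCR1, was raised by E. coli whether or not IFN-γ was present. It was at 65.1, 57.3 and 49.8 in the ACs libraries, 219, 186 and 223 in those given E. coli, 77.8, 57.3 and 73.9 in those given IFN-γ and 281, 228 and 277 in those given both. All 6 libraries with E. coli were above all 6 without it. The log2 change was 1.85 with E. coli (3.65-fold, SE 0.18, limma adjusted p = 8.9e-07), 0.27 with IFN-γ (adjusted p = 0.29) and 2.18 with both (4.57-fold, SE 0.18, adjusted p = 2e-08). The levels with E. coli and with both differed by 0.32 (SE 0.18, adjusted p = 0.21), which did not pass although the libraries did not overlap.

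In the IL-4 experiment, Ccl3 was at 151, 179 and 113 with ACs and at 111, 94.3 and 103 with IL-4. The 3 IL-4 libraries were the lowest, with 111 against 113 at the closest, and the change of -0.50 did not pass (SE 0.22, limma adjusted p = 0.52). It passed as a fall when the shallow replicate 3 of both groups was left out, a choice made after seeing the data. The response to IL-4 was below those to E. coli and to both stimuli, at log2 differences of -2.35 and -2.67 (SE 0.27 each, limma adjusted p = 1.1e-05 and 3.8e-07).

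Ccl4, a macrophage inflammatory protein whose gene lies next to Ccl3, was raised by every stimulus and most by E. coli. It was at 196, 142 and 127 in the ACs libraries, 1103, 845 and 862 in those given E. coli, 194, 229 and 316 in those given IFN-γ and 302, 483 and 527 in those given both. The E. coli libraries were above all others of the experiment, and IFN-γ overlapped its neighbours on both sides. The mean rose 6.05-fold with E. coli, from 155 ± 36.2 to 937 ± 144 (SD, n = 3), a log2 change of 2.60 (SE 0.22, limma adjusted p = 1.1e-07). With both stimuli the log2 change was 1.47 (SE 0.22, adjusted p = 2.3e-05), and the level differed from that with E. coli by -1.13 (adjusted p = 0.0008).

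The smaller change of Ccl4 with IFN-γ, 0.66 (SE 0.22, limma adjusted p = 0.029), was lost without ACs replicate 2 or 3 or IFN-γ replicate 2 or 3 (adjusted p 0.051 to 0.14) and with upper-quartile scaling. The step from IFN-γ to both stimuli, 0.81 (adjusted p = 0.011), was lost without IFN-γ replicate 1 or both-stimuli replicate 3 (adjusted p 0.052 to 0.065). With IL-4, Ccl4 was at 541, 428 and 581, against 280, 253 and 273 with ACs, without overlap. The log2 change was 0.93 (SE 0.16, limma adjusted p = 0.025), lost without IL-4 replicate 1 or 3 or ACs replicate 1 or 2 (adjusted p 0.071 to 0.16).

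Ccl5, a chemoattractant of T cells, eosinophils and monocytes, was raised by all 3 Type 1 stimuli. It was at 2413, 2156 and 1782 in the ACs libraries, 4897, 3440 and 4513 in those given E. coli, 6070, 7548 and 5438 in those given IFN-γ and 6168, 7404 and 6256 in those given both. Every stimulated library was above every ACs library, and both groups with IFN-γ were above E. coli and overlapped each other. The log2 change was 1.01 with E. coli (2.02-fold, SE 0.15, limma adjusted p = 9.3e-05), 1.58 with IFN-γ (3-fold, SE 0.15, adjusted p = 1.5e-07) and 1.65 with both (3.12-fold, SE 0.15, adjusted p = 5.3e-08). IFN-γ and both stimuli differed by 0.07 (SE 0.15, adjusted p = 0.80). The difference of 0.64 between both stimuli and E. coli (adjusted p = 0.0039) fell under 1.5-fold without E. coli replicate 2 or both-stimuli replicate 2, and with upper-quartile scaling.

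With IL-4, Ccl5 was at 860, 688 and 1306, against 930, 983 and 1308 with ACs, and the groups overlapped (log2 change -0.21, SE 0.23, limma adjusted p = 0.79). Its IL-4 response was below those to E. coli, to IFN-γ and to both, at log2 differences of -1.22, -1.79 and -1.86 (SE 0.28 each, limma adjusted p = 0.011, 9.2e-05 and 4.4e-05). Once each group's mean was taken out, Ccl5 moved from library to library with the summed macrophage markers (Pearson r = 0.954 and Spearman rho = 0.955 over 18 libraries in 6 groups, and r = 0.929 without the 2 libraries farthest from the median of the sum) and against the eosinophil markers (r = -0.77). Across groups it did not, since Ccl5 was higher with E. coli, where the macrophage sum was lower, and the r over all 18 deviations from ACs was 0.005. These r are descriptions, chosen after their values were seen.

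Ccl6 and Ccl9, the CCR1 ligands, both fell with IFN-γ. Ccl6 was at 12516, 12095 and 12926 in the ACs libraries, 14726, 15298 and 17395 in those given E. coli, 8975, 6975 and 7714 in those given IFN-γ and 6626, 5964 and 6376 in those given both. No pair of these groups overlapped, and the order was E. coli, ACs, IFN-γ and then both stimuli. The log2 change was 0.33 with E. coli (SE 0.11, limma adjusted p = 0.049, under 1.5-fold), -0.67 with IFN-γ (SE 0.11, adjusted p = 0.00011) and -0.99 with both (SE 0.11, adjusted p = 8.1e-07). The last neighbours in the order, IFN-γ and both stimuli, differed by -0.31 (SE 0.11, adjusted p = 0.05), which did not pass, and both stimuli lay below E. coli alone (-1.32, SE 0.11, adjusted p = 4.2e-08).

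Ccl9 was at 7076, 7609 and 6652 in the ACs libraries, 5852, 6503 and 7522 in those given E. coli, 5130, 4168 and 4552 in those given IFN-γ and 5616, 4813 and 5322 in those given both. All 6 libraries with IFN-γ were below all 6 without it. The log2 change was -0.63 with IFN-γ (SE 0.12, limma adjusted p = 0.0004), -0.44 with both (SE 0.12, adjusted p = 0.0053, under 1.5-fold) and -0.11 with E. coli (SE 0.12, adjusted p = 0.62). The IFN-γ change fell under 1.5-fold without ACs replicate 2 or IFN-γ replicate 2, with adjusted p of 0.0039 and 0.0038.

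In the IL-4 experiment Ccl6 was at 29312, 29177 and 27520 with ACs and at 34639, 32845 and 32777 with IL-4, and Ccl9 at 10369, 11427 and 11313 with ACs and at 15067, 15164 and 17152 with IL-4. In each gene the IL-4 libraries were above the ACs libraries. The changes, 0.22 (SE 0.11, limma adjusted p = 0.55) and 0.52 (SE 0.11, adjusted p = 0.085), did not pass. They were above the changes with IFN-γ by 0.89 for Ccl6 (SE 0.15, limma adjusted p = 0.00025) and 1.14 for Ccl9 (SE 0.16, adjusted p = 3.5e-05). The summed eosinophil markers were also lower with IFN-γ than with ACs, without overlap. Of 8 eosinophil markers tested, 4 were lower with IFN-γ (9.96% of all genes), while Ccr3 and Prg2 did not pass. With both stimuli, where Ccl6 was lowest, the sums of 22165 to 26728 overlapped those with ACs, 24324 to 25711. The summed eosinophil markers with IL-4 overlapped their ACs libraries. Their part in these changes was not tested.

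**Figure D3:**
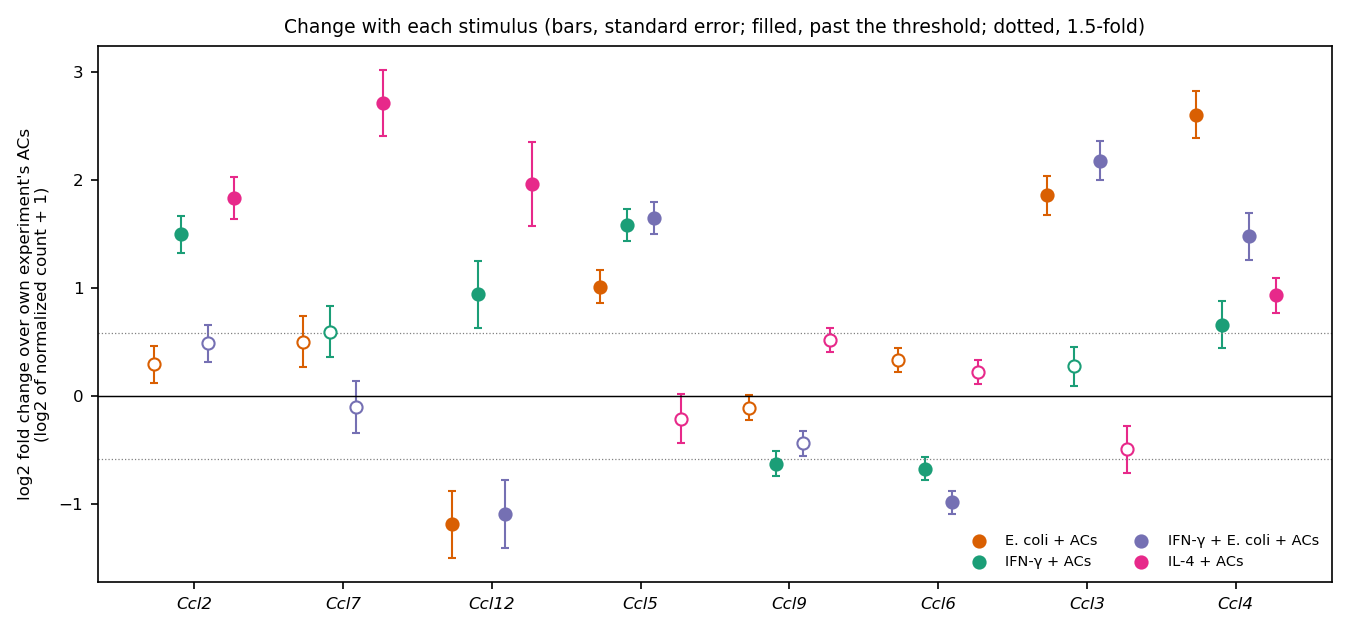
Change of each chemokine with each stimulus over the ACs libraries of its own experiment, on the log2 of normalized count + 1. Bars are standard errors from limma, filled points passed the threshold, and dotted lines mark 1.5-fold. Ccl4 with E. coli (2.60) and Ccl7 with IL-4 (2.71) were the largest changes, and Ccl12 lay below 0 in both comparisons with E. coli.

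The signed change with both stimuli lay below the sum of the single changes for 5 of 8 members, which means a smaller rise than the sum for Ccl2, Ccl4 and Ccl5, a larger fall for Ccl6, and for Ccl7 a change of -0.10 with both beside single changes of 0.50 and 0.59 that did not pass, where 7.44% of genes passed the same test, 3.16% higher and 4.28% lower. The change with both stimuli less the sum of the single changes, on the log2 scale, was -1.79 for Ccl4 (SE 0.30, limma adjusted p = 0.0012), -1.30 for Ccl2 (SE 0.24, adjusted p = 0.0023), -1.2 for Ccl7 (SE 0.34, adjusted p = 0.035), -0.95 for Ccl5 (SE 0.21, adjusted p = 0.0091) and -0.65 for Ccl6 (SE 0.15, adjusted p = 0.014). For Ccl3 the change with both was near the sum (0.05, SE 0.26, adjusted p = 0.94), and for Ccl12 and Ccl9 the terms were -0.84 (SE 0.44, adjusted p = 0.27) and 0.30 (SE 0.16, adjusted p = 0.30). The median term was -0.90 over the 8 members and -0.03 over all genes.

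The term of Ccl7 was lost in 7 of 12 fits with 1 library less (limma adjusted p 0.060 to 0.10, without ACs replicate 2 or 3, E. coli replicate 1 or 3, IFN-γ replicate 2 or 3, or both-stimuli replicate 1). That of Ccl6 fell under 1.5-fold without E. coli replicate 3 (-0.58, adjusted p = 0.05) or IFN-γ replicate 1 (-0.55, adjusted p = 0.04). Against IFN-γ alone, both stimuli gave 5 of 8 members past the threshold, Ccl3 and Ccl4 higher and Ccl2, Ccl7 and Ccl12 lower (14.6% of genes, 5.96% higher and 8.61% lower), and 5 did not overlap, against 29.6%. Against E. coli alone, Ccl5 was higher and Ccl4 and Ccl6 were lower (19.4% of genes, 9.79% higher and 9.57% lower), and 6 did not overlap, against 39.3%. The single stimuli differed in 5 of 8 members, with Ccl2 and Ccl12 higher with IFN-γ (1.2 and 2.13) and Ccl3, Ccl4 and Ccl6 higher with E. coli (-1.58, -1.94 and -1.01 as IFN-γ less E. coli). In that comparison 16.6% of genes passed, 9.84% higher and 6.72% lower with IFN-γ, and 7 members did not overlap, against 36.8%.

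Differences between the response to IL-4 and those to the Type 1 stimuli passed the threshold for 7 of 8 members against E. coli (4.43% of genes, 1.88% higher and 2.54% lower), 4 of 8 against IFN-γ (14.3% of genes, 6.17% higher and 8.09% lower) and 7 of 8 against both stimuli (20.4% of genes, 9.67% higher and 10.8% lower). Relative to E. coli, Ccl2, Ccl7, Ccl9 and Ccl12 responded more to IL-4 and Ccl3, Ccl4 and Ccl5 less. The call on Ccl9 in that comparison, 0.62 (limma adjusted p = 0.028), was lost in 7 of 13 fits with a library or pair less (adjusted p 0.048 to 0.098), namely without ACs replicate 1 or 2 and E. coli replicate 1 or 2 of the Type 1 experiment, and IL-4 replicate 3, ACs replicate 1 or both shallow libraries of the other. Relative to IFN-γ, Ccl6, Ccl7 and Ccl9 responded more to IL-4 and Ccl5 less. The 2 experiments have separate ACs libraries, and stimulus and experiment cannot be told apart in these differences beyond what the own ACs take out.

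With ACs alone the members were not at the same level in the 2 experiments. Ccl6, Ccl3, Ccl4 and Ccl9 were higher in the IL-4 experiment, by 1.2, 1.33, 0.81 and 0.63 on the log2 scale, and Ccl12 and Ccl5 were lower (-1.93 and -0.98), 6 of 8 past the threshold (limma adjusted p 4.6e-05 to 0.01) against 19.2% of 10592 genes, 10.7% higher and 8.53% lower. The libraries of 6 members did not overlap, against 42.2% of genes. The call on Ccl4 was lost without replicate 2 or 3 of the Type 1 ACs (adjusted p 0.050 to 0.052). Ccl2 and Ccl7 differed by -0.10 and 0.74 (adjusted p = 0.74 and 0.12). Experiment, its date and its normalization cannot be told apart here.

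The 8 members fell into sets that varied together, as a description over 18 libraries in 6 groups that share ACs libraries. On deviations from the own experiment's ACs mean, Pearson r was 0.82 for Ccl2 with Ccl7, 0.78 for Ccl2 with Ccl12 and 0.77 for Ccl7 with Ccl12, the genes of the first cluster. It was 0.77 for Ccl6 with Ccl9 and 0.73 for Ccl3 with Ccl4, which are close neighbours in the second cluster, but -0.81 for Ccl5 with Ccl9, also neighbours. When each group's own mean was taken out, r was 0.85, 0.82 and 0.70 in the first cluster and 0.64 for Ccl6 with Ccl9, but 0.13 for Ccl3 with Ccl4 and 0.12 for Ccl5 with Ccl9. By these r the first cluster varied together over all deviations and from library to library. Ccl3 and Ccl4 did so over all deviations only. Within groups Ccl4 went instead with the first cluster, at 0.78 with Ccl2, 0.63 with Ccl7 and 0.60 with Ccl12. These r of Ccl4 were picked after their values were seen. Changes by group were not alike for every stimulus. With E. coli the log2 change was 0.29 for Ccl2 and 0.50 for Ccl7 but -1.19 for Ccl12. With IL-4 these 3 genes all rose, but Ccl3 changed by -0.50 and Ccl4 by 0.93. The within-group r was also taken without the 2 libraries farthest from the median of 1 gene of the pair. It was 0.80 for Ccl2 with Ccl7, 0.81 for Ccl2 with Ccl12, 0.49 for Ccl7 with Ccl12 and 0.40 for Ccl6 with Ccl9.

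**Figure D4:**
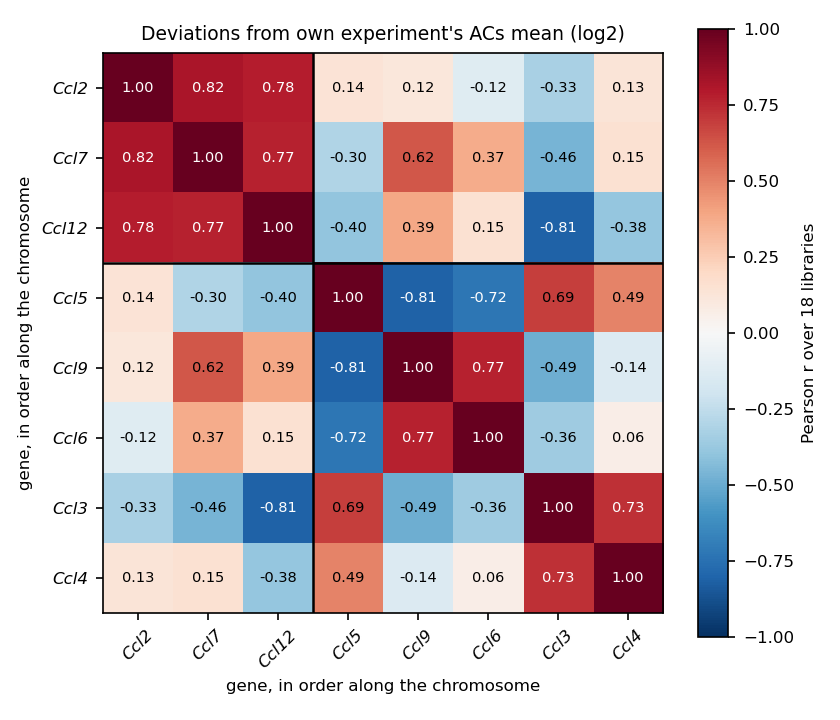
Pearson r between members over 18 libraries, on log2 deviations from the mean of the own experiment's ACs libraries, with genes on both axes in order along the chromosome. Black lines part the clusters. The first cluster (Ccl2, Ccl7, Ccl12) shows r of 0.77 to 0.82, and Ccl12 and Ccl3 show -0.81.

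Among 6899 genes with a mean of at least 50, those most like each member by the same deviations over 18 libraries were Chil3 (r = 0.889), Serpina3g (0.852) and Dnaja1 (0.847) for Ccl2, Ddx4 (0.935), Chil3 (0.913) and Nsf (0.876) for Ccl7, and Dab2 (0.946), Ccl24 (0.907) and Mfhas1 (0.901) for Ccl12. Chil3 is a chitinase-like protein that IL-4 induces in macrophages. Those most like Ccl3 included Ebi3 (0.97) and Itgam (0.96), those most like Ccl4 were Alas1 (0.91), Cd52 (0.89) and Tagln2 (0.88), and those most like Ccl5 were Procr (0.99), Cope (0.98) and Slc3a2 (0.98). For Ccl6 they were Car4 (0.97), Sec11a (0.95) and Enah (0.95), and for Ccl9 Pigx (0.96), Fcgr2b (0.94) and Lmna (0.925).

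Receptors for these chemokines were present in the same libraries. Ccr1, the receptor of Ccl3, Ccl5, Ccl6 and Ccl9, had a mean of 1829 with ACs and 2856 with both Type 1 stimuli (log2 change 0.64, SE 0.10, limma adjusted p = 3.5e-05). Ccrl2, an atypical receptor that binds chemerin, rose from 120 to 331, 501 and 837 with E. coli, IFN-γ and both (log2 changes 1.46, 2.06 and 2.80, SE 0.12 each, limma adjusted p at most 1.1e-07).

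Ccr3, the main eosinophil receptor for eotaxins, was at means of 2974 to 4498 in the Type 1 groups and did not pass 1.5-fold. Ccr2, the receptor of the first cluster's ligands, was scarce, at 18.8 with ACs and 4.98 with IFN-γ (-1.75, SE 0.56, limma adjusted p = 0.025), and Ccr9 rose with IFN-γ from 11 to 25.4 (1.06, SE 0.37, adjusted p = 0.040). With IL-4 the 5 receptors tested did not pass, and Ccrl2 had the smallest adjusted p (-0.85, SE 0.21, limma adjusted p = 0.14).

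Of 12 other CC chemokines, 5 were tested in the Type 1 experiment and 3 passed, as rises, with IFN-γ (11.4% of all genes were higher), led by Ccl17 (8.52 to 57.3, log2 change 2.66, SE 0.44, limma adjusted p = 0.00013) and Ccl8 (14.6 to 69.5, 2.24, SE 0.52, adjusted p = 0.0033). With E. coli and with both stimuli the limma adjusted p of the 5 were 0.064 to 0.79 and 0.15 to 0.78, so that they did not pass. With IL-4 2 of 4 passed (0.74% of all genes were higher), Ccl8 (5.84 to 258, 5.85, SE 0.76, adjusted p = 0.0057) and the eotaxin Ccl24 (280 to 999, 1.84, SE 0.17, adjusted p = 0.00065). Ccl8 lies in the same region as Ccl2, Ccl7 and Ccl12. Its 3 ACs libraries of the IL-4 experiment held 0 to 11.3, with the shallow one at 0, so its fitted change depends on the pseudocount.

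Genes of the signalling pathways behind these stimuli were counted by list, as a description that is read beside the share of all genes past the threshold. Of 30 genes of LPS and NF-κB signalling tested, 9 rose and 1 fell with E. coli (5.05% and 5.25% of all genes), led by Bcl3 (33.0 to 141, log2 change 2.06) and Irak3 (246 to 747, 1.61), 8 rose and 1 fell with IFN-γ (11.4% and 9.96%), led by Tnip3 (log2 change 1.47) and Ikbkg (1.37), and 12 rose and 1 fell with both (14.7% and 17.2%), led by Bcl3 (2.82) and Irak3 (2.25). In either direction 21.4% of all genes passed with IFN-γ and 31.9% with both, and no test sets the list apart from other genes. Of 11 genes of IFN-γ signalling, 5 rose and 1 fell with IFN-γ, led by Irf8 (103 to 610, 2.56) and Irf1 (783 to 4414, 2.49), and 6 rose with both, among them Irf1 (2.82). Of 9 genes of IL-4 signalling, where 0.74% of all genes were higher, Socs2 (601 to 1233, 1.04) and Cish (334 to 681, 1.03) rose with IL-4. Median log2 changes over these lists were 0.34 for the first with E. coli, 0.39 for the second with IFN-γ and 0.06 for the third with IL-4, and limma adjusted p of the genes named were at most 0.036.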

How the data were processed

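RNA from 18 cultures of mouse eosinophils was sequenced with CEL-Seq2. In the deposited table the authors give a signal for each gene in each library, the count of reads divided by a DESeq2 size factor and rounded to 2 decimals. Per the labels, reads were processed with TopHat2 2.1.0, HTSeq 0.6.1 and DESeq2 1.26.0 on GRCm38. The study's methods also describe a second pipeline, and which of them gave this table is not given in the sources used here. Between 99.8% and 100.0% of the values of each library were whole multiples of 1 step within 0.0051, so whole reads were recovered. All columns were used.

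Groups came from the sample labels. Genes whose normalized counts averaged 10 or more across a fit's libraries were tested with limma 3.58.1 in R 4.3.3 (lmFit, eBayes with a trend) on log2(normalized count + 1), a scale that understates the change of low genes. Stimuli of the Type 1 experiment were fitted on its 12 libraries, IL-4 on 6, differences between responses on 18, and ACs between experiments on 6. P-values were adjusted by Benjamini-Hochberg over all genes of the fit. Groups of 3 cannot reach a two-sided exact permutation p below 0.10, so the moderated fit was used. Replicates of a group differed by 4.19 to 14.7 times counting error (chi-square per degree of freedom), a ratio that treats reads as independent molecules. No pair of replicates within a group held identical values or agreed within that error. Pairs across groups were not compared in this way. Alternatives were a pseudocount of 5, no filter, a mean of at least 50, upper-quartile scaling, edgeR 4.0.16 and DESeq2 1.42.0 on recovered reads, the replicate number as a block, all 18 libraries in one fit, and each library left out. EdgeR called 533 genes higher and 694 lower with E. coli, 1129 and 1098 with IFN-γ, 1532 and 1744 with both and 127 and 85 with IL-4. Scripts were tested on simulated data.

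The members, gene lists and motifs were chosen with earlier results of these data known. Genes named are the 8 members, the CC chemokine receptors, the 2 genes of each other list with the largest change past the threshold, and the 3 genes most like each member by Pearson r. Some genes that this rule names are not reported here. Positions are from GENCODE M21 and promoters from RefSeq. Python 3.11.15, numpy 2.4.6, pandas 2.3.3 and matplotlib 3.10.9 were used.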

Additional observations from a re-analysis of the deposited data

Results flagged for a closer look

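A test of the difference between the response to both stimuli and the sum of the single responses passed for 5 chemokines. The term was -1.79 for Ccl4, -1.30 for Ccl2, -1.20 for Ccl7, -0.95 for Ccl5 and -0.65 for Ccl6 on the log2 scale (limma, 12 libraries). For Ccl4 the level with both stimuli stood between the levels with IFN-γ and E. coli, for Ccl2 it stood below the level with IFN-γ and overlapped those with E. coli and ACs, and for Ccl6 it was the lowest of the 4 groups. Groups of 3 were not tested for outlying samples.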

How the results depend on the processing

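Calls on members rest on 3 libraries per group, of which replicate 3 is shallow in each group of the IL-4 experiment, where 3 reads equal normalized counts of 15.4 to 16.1. Member calls moved with the scaling in few cases. With upper-quartile scaling, which shifts the median change of all genes with both Type 1 stimuli from -0.05 to -0.18 and their split from 1494 higher and 1746 lower to 1155 and 2200, the members higher with IFN-γ numbered 2 in place of 4, those higher with both stimuli against E. coli 0 in place of 1 (Ccl5, 0.53), and Ccl12 in that last comparison reversed to -0.0091. Without a filter or with all 18 libraries in one fit, 3 members in place of 5 had a lower joint term. With a mean of at least 50, the IFN-γ comparison gave 645 genes lower and both stimuli 963, the members responding less to IL-4 than to IFN-γ numbered 2 in place of 1 (Ccl3 was added, as with edgeR and DESeq2, 2 each), and 1 member in place of 2 was lower with ACs in the IL-4 experiment, where Ccl12 was no longer tested. The joint term gave 485 genes higher with DESeq2 in place of 321 and 281 lower with all 18 libraries in place of 435, and the IL-4 response exceeded the E. coli response in 322 genes with edgeR and 337 with DESeq2 in place of 196.

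For IL-4 against ACs, 79 genes were higher and 37 lower, against 125 and 83 without a filter, 127 and 85 with edgeR, 128 and 81 with DESeq2, and 105 lower with all 18 libraries. Without the shallow replicate 3 of both groups, an alternative chosen after seeing the data, 345 were higher and 311 lower and 1 member (Ccl3) was lower. With the replicate block, 45 genes and 2 members (Ccl2 and Ccl7) were higher with IL-4. Residuals of libraries with the same number correlated at -0.09 to 0.09 in the Type 1 experiment and at 0 to 0.02 in the IL-4 experiment, so the numbers were not taken to pair the libraries.

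With each library left out in turn, members lower with E. coli numbered 0 to 1 and genes lower 352 to 407 (main 534, lowest without ACs replicate 3). With IFN-γ 2 to 5 members were higher and 1 to 2 lower, and genes lower numbered 734 to 975. Both stimuli gave 1375 to 1819 genes lower, 1 to 2 members higher than with IFN-γ and 0 to 1 higher than with E. coli. The joint term gave 3 to 5 members lower, 161 to 444 genes higher and 239 to 582 lower. IL-4 gave 2 to 4 members higher, 31 to 95 genes higher and 16 to 51 lower, 131 to 269 genes with a larger response than to E. coli (the highest without both shallow libraries, and up to 222 otherwise) and 1 to 2 members with a smaller response than to IFN-γ. Between the ACs groups 503 to 1284 genes were lower. Values not past the threshold that changed sign were Ccl7 with both stimuli (-0.223 to 0.0907) and between the single stimuli (-0.14 to 0.28), Ccl5 between both stimuli and IFN-γ (-0.0395 to 0.197), Ccl12 between both stimuli and E. coli (-0.13 to 0.34), the joint term of Ccl3 (-0.0841 to 0.145) and Ccl2 between the ACs groups (-0.279 to 0.0796). The cause of these changes was not tested.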
